A study of Caenorhabditis elegans with 2 samples.

Results

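The members are the small nucleolar RNA (snoRNA) genes of the nematode *Caenorhabditis elegans*, taken as every nuclear gene of biotype snoRNA in the Ensembl annotation of the WBcel235 assembly, which is the ce11 build. They number 346 of 46890 annotated nuclear genes and are 54 to 344 bp long, with a median of 130 bp. A member counted as having a summit where the summit of an LSY-2 peak, the position of highest signal, lay within 250 bp of the gene. Members were split into 216 that lie wholly inside a protein-coding gene, called the host, and 130 that stand alone. Of the 130, 6 overlap a protein-coding exon, and 4 of these 6 had a summit. The 216 hosted genes lie in 188 hosts, with 183 on the host's strand and 33 on the other strand.

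LSY-2 is a zinc finger transcription factor, and the regions it occupies were mapped by sequencing of immunoprecipitated chromatin (ChIP-seq). Whole mixed-stage embryos of strain OP367, with males and females pooled and of unknown age, formed 1 group of 2 biological replicates. Both replicates carry the unc-119(tm4063) allele on chromosome III and the transgene wgIs367, which supplies LSY-2 tagged with eGFP, a green fluorescent protein. The sources used here do not say which promoter drives the fusion, and the labels give lsy-2 as the antibody target. No comparison group was analysed here, and the possible controls that the labels mention were not used here. The peak list that passed the authors' irreproducible discovery rate (IDR) threshold holds 2568 peaks, of which 2550 are nuclear. Each replicate has a list of 30000 peaks, and the top 2568 of each list by signal showed the spread between replicates. The depth is unknown, since read numbers were not analysed here. Since whole embryos were used, the number of cells with LSY-2 at a site and the amount in each cell cannot be told apart.

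snoRNAs guide the chemical modification of ribosomal and small nuclear RNAs in the nucleolus. Box C/D snoRNAs guide ribose methylation by fibrillarin, and box H/ACA snoRNAs guide pseudouridylation by dyskerin. Many are cut from the introns of host transcripts, and others have a promoter of their own. RNA polymerase III promoters of the kind found in tRNA genes hold an A box and a B box, and RNA polymerase III stops at a run of T.

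Sequences before 6 genes with a summit are given here because they carry a pair of short motifs that resembles the A and B boxes. The pair lies just before the snoRNA and was found at 11 of the 59 genes with a summit (18.6%), so most lack it. It was also found at 7 of the 287 members without a summit (2.44%). Its letters were chosen on these same members. Each sequence runs 5' to 3' on the snoRNA's strand from 120 bp before its 5' end and includes the first 20 bases of the snoRNA. In these 6 genes capitals mark an A box, searched as TGG, any 3 bases, AG, any 2 bases and G, and after it a B box, searched as GTTCNANNC, where N is any base. Y43F8C.22, in the host Y43F8C.7, was read from chrV:19643168-19643307 (minus strand). C51F7.3, in frm-7, was read from chrV:12303588-12303727 (plus strand). T03F7.8, in cutl-18 on the other strand, was read from chrV:11314138-11314277 (plus strand). C04G6.12, in mpk-2 on the other strand, was read from chrII:5105212-5105351 (minus strand). M106.6, in mix-1, was read from chrII:10840197-10840336 (plus strand). W03C9.9, which stands alone, was read from chrII:11960778-11960917 (plus strand).
Y43F8C.22: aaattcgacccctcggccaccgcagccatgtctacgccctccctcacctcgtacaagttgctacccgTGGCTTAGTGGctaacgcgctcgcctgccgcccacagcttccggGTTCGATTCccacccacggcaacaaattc
C51F7.3: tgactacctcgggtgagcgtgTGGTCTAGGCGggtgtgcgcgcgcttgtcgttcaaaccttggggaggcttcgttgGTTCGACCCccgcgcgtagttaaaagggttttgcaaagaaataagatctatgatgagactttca
T03F7.8: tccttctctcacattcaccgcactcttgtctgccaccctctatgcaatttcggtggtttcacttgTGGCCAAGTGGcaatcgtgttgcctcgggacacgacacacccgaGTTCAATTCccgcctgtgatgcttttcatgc
C04G6.12: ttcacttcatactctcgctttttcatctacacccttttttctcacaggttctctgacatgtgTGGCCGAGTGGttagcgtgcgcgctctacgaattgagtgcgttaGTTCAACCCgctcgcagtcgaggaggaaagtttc
M106.6: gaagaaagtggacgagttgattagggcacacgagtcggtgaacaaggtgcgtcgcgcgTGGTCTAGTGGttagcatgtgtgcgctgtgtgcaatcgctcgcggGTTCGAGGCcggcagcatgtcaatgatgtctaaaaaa
W03C9.9: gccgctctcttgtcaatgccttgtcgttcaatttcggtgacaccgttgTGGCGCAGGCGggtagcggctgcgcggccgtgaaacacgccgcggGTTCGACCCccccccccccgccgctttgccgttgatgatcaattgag

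A further 3 stand-alone genes with a summit show starts without this pair of boxes. Capitals mark GCGGAACC, a motif before several snoRNA genes, in Y53F4B.47 at chrII:15025874-15026013 (minus strand) and in T26A8.6 at chrIV:8428720-8428859 (minus strand). C36E8.11, at chrIII:4004315-4004454 (plus strand), has none of these motifs and is shown for contrast.
Y53F4B.47: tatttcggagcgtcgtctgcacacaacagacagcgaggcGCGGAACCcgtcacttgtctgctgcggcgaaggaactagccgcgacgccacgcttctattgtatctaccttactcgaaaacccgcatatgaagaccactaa
T26A8.6: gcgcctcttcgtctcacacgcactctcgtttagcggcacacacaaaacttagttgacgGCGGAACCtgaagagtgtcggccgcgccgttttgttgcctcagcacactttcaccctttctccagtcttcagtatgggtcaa
C36E8.11: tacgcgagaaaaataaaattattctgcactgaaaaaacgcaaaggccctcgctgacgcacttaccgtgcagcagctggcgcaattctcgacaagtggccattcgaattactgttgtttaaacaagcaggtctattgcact

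Of the 346 snoRNA genes, 59 had an IDR summit within 250 bp, or 17.1% (95% Wilson interval 13.5 to 21.4%). The same rule called 5.51% of the other 46544 nuclear genes, 9.86% of protein-coding genes, 11.9% of tRNA genes and 10.1% of small nuclear RNA (snRNA) genes. miRNA genes stood at 3.45% and piRNA genes at 0.241%. Measured from the gene's 5' end only, which does not depend on gene length, the share was again 17.1% for snoRNA genes, compared with 4.05% for the other nuclear genes and 6.81% for protein-coding genes. The share of snoRNA genes was above that of each of these other classes. Members within 1 host or beside 1 summit are not independent, and no test of the classes was made.

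The share with a summit was larger for stand-alone than for hosted snoRNA genes, a difference that was described and not tested. Of the 130 stand-alone genes, 32 had a summit, or 24.6% (95% Wilson interval 18.0 to 32.7%). Of the 216 hosted genes, 27 had one, or 12.5% (8.73 to 17.6%). In the top of the replicate 1 list the shares were 22.3% and 11.6%, and in replicate 2 they were 23.1% and 9.72%, beside 5.45% and 5.54% of other nuclear genes. Thus the order of the classes was the same in both replicates. Among hosted genes, the share was 10.9% (7.19 to 16.3%) for the 183 on the host's strand and 21.2% (10.7 to 37.8%) for the 33 on the other strand, and these intervals overlap. Without summits in windows from 1000 bp upstream to 300 bp downstream of protein-coding transcript starts, the shares were 12.3% (7.72 to 19.1%) of stand-alone and 8.80% of hosted genes, and their intervals overlap. The intervals cover counting error over genes only. Of positions between protein-coding genes, 2.13% lay within 250 bp of a summit, compared with 0.747% of positions within protein-coding genes. The classes thus lie in unlike surroundings, and the part of this in their difference was not tested.

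**Figure D1:**
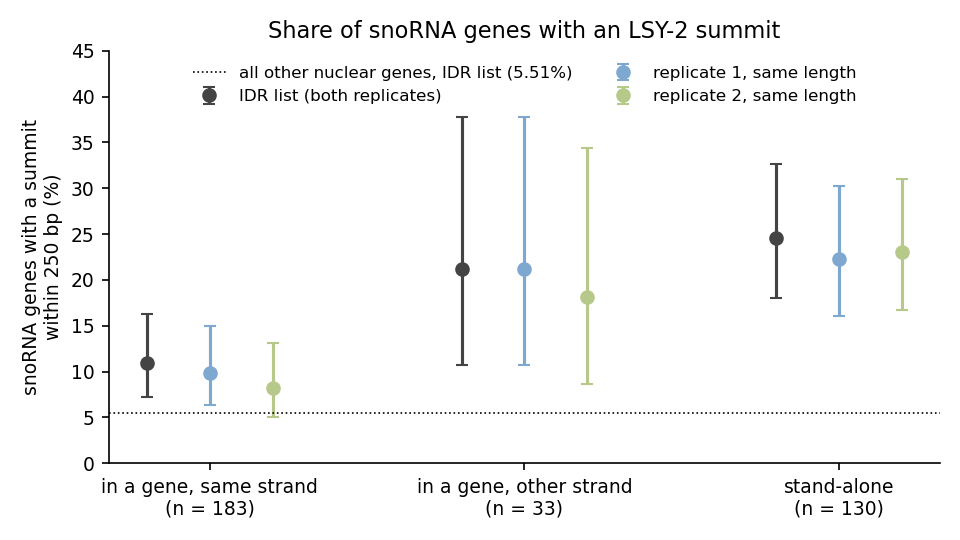
Percent of snoRNA genes with a summit within 250 bp, by place of the gene, in the IDR list and in the equally long top of each replicate list; bars are 95% Wilson intervals and the dotted line is the share of other nuclear genes, 5.51%. Stand-alone genes sit at 24.6% in the IDR list and between 22.3% and 23.1% in the replicates, above genes on the host's strand at 10.9%.

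The summits lay just before the snoRNA. The nearest summit was upstream of the 5' end at 46 of the 59 genes, inside the gene at 11 and past its 3' end at 2. Its median position was 32 bp upstream of the 5' end, with quartiles at -59 and -3 bp. Hosted genes had a median of -25 bp and stand-alone genes a median of -43.5 bp. The nearest summit lay in the 100 bp before the 5' end at 40 of 346 genes, or 11.6% (8.61 to 15.4%), and in the 100 bp after the 3' end at 2, or 0.578% (0.159 to 2.08%). In replicate 1 these counts were 34 and 1, and in replicate 2 they were 35 and 0. The same asymmetry held for hosted genes, with 19 before and 2 after, and for stand-alone genes, with 21 before and 0 after.

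**Figure D2:**
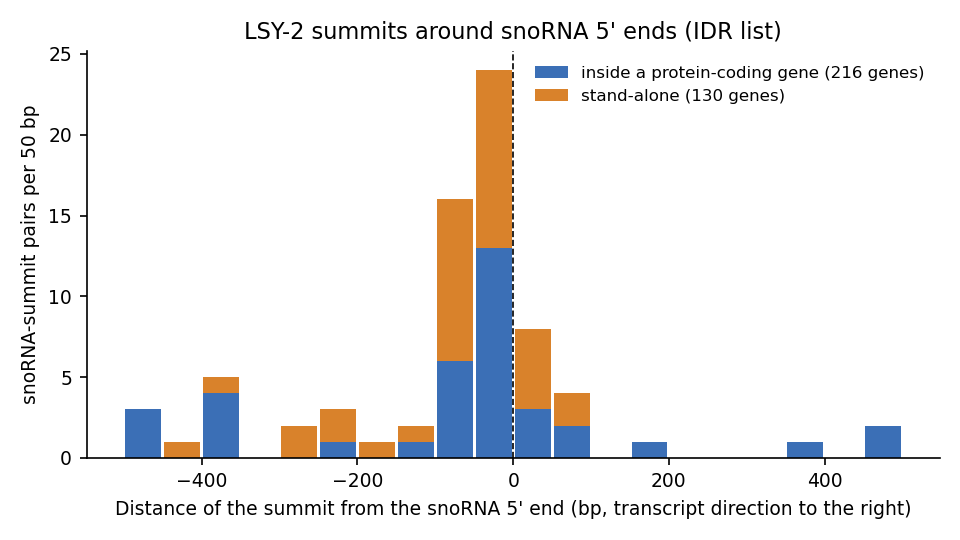
Number of snoRNA and summit pairs per 50 bp of distance from the snoRNA 5' end, out to 500 bp, with the direction of the transcript to the right; colours split hosted and stand-alone genes. Both classes pile up in the 100 bp before the 5' end.

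For hosted genes, most of these summits were not at the host's promoter. A promoter window was set from 1000 bp upstream to 300 bp downstream of any transcript start of a protein-coding gene. Of the 27 hosted genes with a summit, 19 had it outside every such window, 6 had it in the host's own window and 2 in that of another gene. All 7 genes on the host's other strand with a summit were among the 19. Of the 32 stand-alone genes, 16 had the summit in the window of a neighbouring protein-coding gene, so that it cannot be assigned to the snoRNA alone, and 16 had it in none. In all, 35 of the 59 genes had their summit outside protein-coding promoter windows.

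Within the hosts, summits gathered at the introns that hold a snoRNA. Of the 216 hosted genes, 172 lie wholly inside an intron, and 24 of the 27 with a summit are among them. Only 3 of these 24 lie in a first intron, compared with 42 of the 172. Outside promoter windows, the 169 introns with a snoRNA hold 20 summits in 208.3 kb, which is 0.0960 per kb, and the 1501 other introns of the same hosts hold 25 in 702.2 kb, or 0.0356 per kb. Inside the introns with a snoRNA, 17 of the 20 summits lay within 250 bp of the snoRNA, at 0.344 per kb. The rest of these introns held 3 summits in 158.9 kb, at 0.0189 per kb. The introns with a snoRNA are longer, with a median of 462 bp beside 130 bp, and no test was made of these rates.

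F39B2.14 had the highest-ranked summit of the hosted genes and is one of those at a host promoter. Its host, tmem-107, encodes a transmembrane protein. The summit, 139 bp upstream of the snoRNA and 78 bp upstream of a tmem-107 start, also lies in the promoter window of rps-26. It ranked 43 in the IDR list, 44 in replicate 1 and 47 in replicate 2, with an authors' signal of 1403. F54E7.10, in the small ribosomal subunit protein gene rps-12, had the next, at rank 209 with a signal of 302.2. Its summit was 235 bp upstream, near the limit of the rule, and lies in the promoter windows of rps-12 and of the neighbouring ska-3. Replicate 1 had a peak there at rank 214, whereas replicate 2 had no summit within 250 bp of the snoRNA. Both genes therefore stand beside a promoter of a protein-coding gene.

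The hosted genes that follow in rank had their summits outside promoter windows. C17D12.8 lies on the other strand of pcmd-1, a centrosome gene, and had a summit inside the snoRNA, 68 bp from its 5' end, at rank 285 (282 in replicate 1 and 281 in replicate 2). B0334.12, on the other strand of the potassium channel gene twk-5, had its summit 162 bp after the 5' end and past the snoRNA's 3' end, at rank 421 (345 and 495). It was the farthest downstream of all 59. Y43F8C.22 had a summit 20 bp upstream at rank 466, with ranks of 890 and 323 in replicates 1 and 2 and a signal of 116.5. C51F7.4 and C51F7.3 lie in a row in frm-7, a FERM domain gene, and share 1 summit at rank 549 (728 and 508). That summit lies inside C51F7.4, 27 bp from its 5' end, and 82 bp before C51F7.3. It was the only summit within 250 bp of more than 1 member.

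Among the genes on the host's other strand, T03F7.8 in the cuticlin-like gene cutl-18 had a summit 29 bp upstream at rank 643, with ranks of 1501 and 456 in the replicates. C04G6.12 in the mitogen-activated protein kinase gene mpk-2 had its summit 2 bp upstream at rank 745 (922 and 873). ZK484.9 in the ABC transporter gene haf-9 had its summit 48 bp upstream at rank 1230 (1384 and 1339). All 3 ranked within the top 2568 of each replicate. On the host's strand, Y38F2AR.14 in Y38F2AR.12 had a summit 54 bp upstream at rank 920 (793 and 1343). M106.6 lies in mix-1, whose product is a condensin subunit, 16071 bp from the host's 5' end. Its summit was 81 bp upstream of the snoRNA at rank 1062 (804 and 1890), with a signal of 64.57.

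Of the stand-alone genes, K02A11.12 had the highest-ranked summit, 50 bp upstream, at rank 175 with a signal of 446.0. Replicate 1 ranked it 170 and replicate 2 ranked it 175. C36E8.11 followed with a summit 54 bp upstream at rank 402 (381 and 459), which also lies 267 bp before a start of tif-1A. F59C6.15 had a summit 56 bp upstream at rank 481 (393 and 801), in the promoter window of F59C6.18, and M7.15 one 160 bp upstream at rank 497 (417 and 603). The M7.15 summit also lies 734 bp before let-70, a ubiquitin-conjugating enzyme gene. Y53F4B.47 had a summit 87 bp upstream at rank 507 (489 and 480), which lies 134 bp before cmtr-1. Several of the leading stand-alone genes therefore share their summit with a protein-coding promoter window.

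T26A8.6 had a summit 63 bp upstream in no protein-coding promoter window, at rank 561 (772 and 468) and a signal of 98.45. F09G2.14, the longest member at 344 bp, had one 99 bp upstream at rank 709 (1561 and 454), which also lies 237 bp before a start of F09G2.2. W01H2.11, on the X chromosome, had a summit 50 bp inside the gene at rank 729 (606 and 1120). This was the only summit among the 33 members on X. W03C9.9 had a summit 59 bp upstream at rank 842 (646 and 1166), with a signal of 74.82 and no protein-coding promoter window around it. The other leading stand-alone genes were ZK265.10, T23G11.12 and T02E1.9, with summits 40, 68 and 47 bp upstream at ranks 776, 880 and 923. Each summit lies in a window of a protein-coding gene, and T23G11.12 and T02E1.9 also overlap a protein-coding exon.

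The pair of boxes shown in the sequences was found before 18 snoRNA genes, and 11 of these had a summit, or 61.1% (38.6 to 79.7%). The motifs were searched on the snoRNA's strand from 150 bp upstream to 30 bp downstream of its 5' end, with the B box starting 20 to 100 bp after the A box. Of the 328 genes without the pair, 48 had a summit, or 14.6% (11.2 to 18.9%). In replicate 1, 12 of the 18 had a summit, and in replicate 2, 11 did. The letters and the window were chosen after reading the sequences upstream of members with and without a summit, and the A box was widened because that matched more members with a summit. The counts are therefore a description, and no test was made. With tighter letters, C after the TGG of the A box and GTTCGANNC as the B box, 4 of 9 genes with the pair had a summit, or 44.4%.

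The pair was rare before other genes. In the same window it was found before 8 of 19973 protein-coding genes (0.0401%), 2 of 261 miRNA genes (0.766%) and 0 tRNA and snRNA genes. It was found before 5.20% of snoRNA genes and before none of them on the opposite strand. Singly, the A box letters occurred before 1.55% of protein-coding genes and the B box letters before 2.78%, compared with 11.8% of snoRNA genes for each. The single boxes were not particular to snoRNA genes, since the A box letters occurred in the window of 49.2% of tRNA genes and 9.49% of pseudogenes, and the B box letters in that of 10.9% of snRNA genes. The tRNA genes hold the pair inside the gene, at 277 of 612 (45.3%). Of those 277 tRNA genes 38 had a summit, or 13.7%, and of the other 335 tRNA genes 35 had one, or 10.4%. Of the other genes with the pair in the window, 2 of 8 protein-coding genes had a summit, and 0 of 8 ncRNA genes, 0 of 2 miRNA genes and 0 of 2 pseudogenes did. Few genes stand behind these counts, and most of those outside the snoRNA genes had no summit. No member has an annotated tRNA gene within 250 bp.

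Over the 18 genes with the pair, the A box began between -99 and -50 bp and the B box between -44 and -5 bp from the snoRNA 5' end. The letters, the window and the way the boxes were joined were chosen on these same members. The search also took the last B box in the window, so the positions that follow are a description. In the 11 genes with a summit, the A box began at a median of 58 bp and the B box at a median of 14 bp upstream of the 5' end, and the median spacing was 44 bp. The summit lay between the starts of the A and B boxes in 8 of the 11. It lay within 50 bp of the point midway between the boxes in all 11, at a median distance of 14 bp. C51F7.3 had its A box farthest upstream, at -99 bp, and both of its boxes lie inside the neighbouring member C51F7.4. The 7 genes with the pair but without a summit had their boxes at medians of -59 and -14 bp, much the same as the others.

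**Figure D3:**
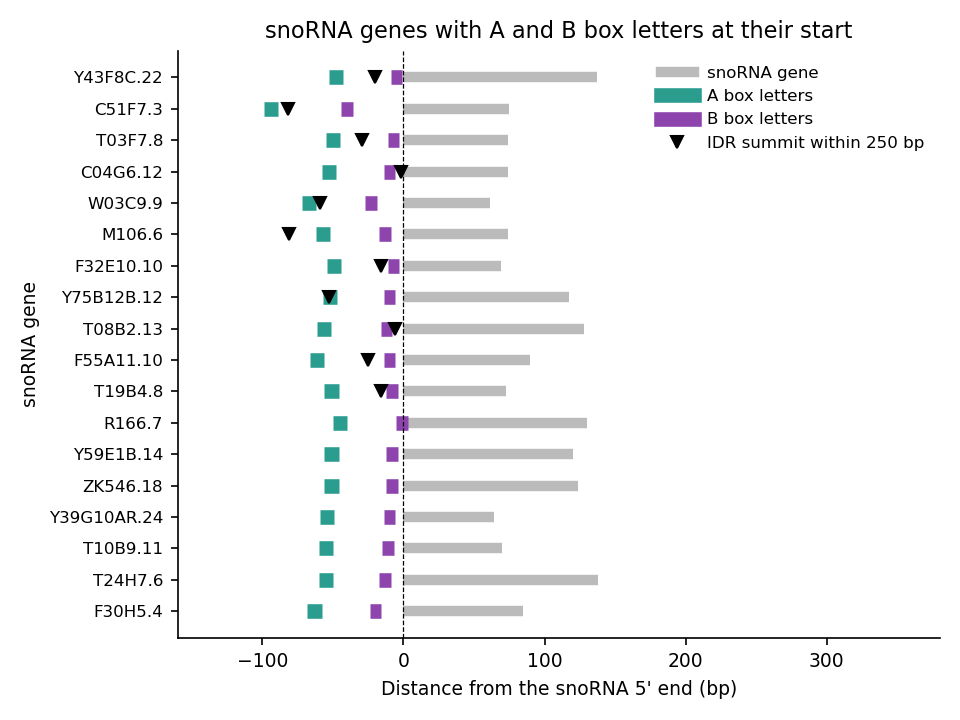
Position of the A box letters, the B box letters and the IDR summit relative to the 5' end of the 18 snoRNA genes that have both boxes, in bp along the snoRNA's strand; grey bars are the snoRNA genes. The upper 11 genes have a summit within 250 bp, mostly between the boxes, and the lower 7 have none.

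Of these 7 genes, 4 missed the IDR list narrowly by pooled signal. ZK546.18, T24H7.6, T10B9.11 and Y39G10AR.24 had pooled peaks at ranks 2596, 2663, 2765 and 2796, just past the 2568 peaks of the IDR list. Their replicate 1 ranks were 3207, 2677, 11789 and 2199, and their replicate 2 ranks were 2599, 3444, 1995 and 4650. None of the 4 was thus in the top 2568 of both replicates. R166.7 had a pooled peak at rank 10072. F30H5.4 had none in the pooled list and one at rank 3600 in replicate 2, and Y59E1B.14 had no peak in any list. The pooled list includes background, per its label, and 156 of all 346 members had a peak of any rank in it. Such a peak was found at 16 of the 18 genes with the pair, compared with 140 of the 328 without it. The share of other nuclear genes with a peak in the pooled list was not counted. Since the letters were chosen on these same members, these counts are a description and do not show occupancy.

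Single boxes showed the same order in hosted genes. Since the letters were chosen on these same members, this split by box is a description and no separate support for the pair. Of the 173 hosted genes with neither box, 8 had a summit, or 4.62% (2.36 to 8.86%), compared with 5.51% of all other nuclear genes. Those other genes include 15363 piRNA genes at 0.241%. Of intron positions, 0.751% lay within 250 bp of a summit, a share per base and not per gene. Of the 33 hosted genes with 1 box or boxes not in a pair, 12 had a summit, or 36.4%. Of the 10 with the pair, 7 had one. Stand-alone genes with neither box had a summit at 21 of 109, or 19.3%, compared with 7 of 13 with 1 box and 4 of 8 with the pair. Of the 8 hosted genes with a summit and neither box, 4 had the summit in the host's promoter window. Genes with a summit also had a higher GC content in the 100 bp before the snoRNA, with a median of 54% compared with 42% for the others. Among hosted genes with a box, these medians were 57% and 46%, whereas among stand-alone genes with a box they were 53% and 54%. The part of GC content in the result was not tested.

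**Figure D4:**
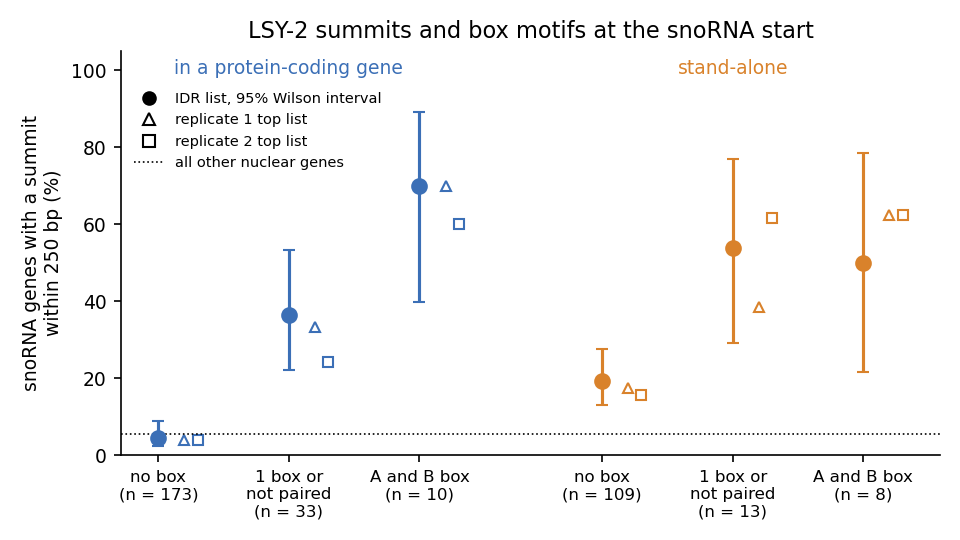
Percent of snoRNA genes with a summit within 250 bp by the box letters found around the 5' end, for hosted (left) and stand-alone (right) genes; filled points are the IDR list with 95% Wilson intervals, open symbols the top of each replicate list, and the dotted line other nuclear genes. Hosted genes go from 4.62% with no box to 36.4% with 1 box or boxes not in a pair, and 7 of the 10 with the pair had a summit. The letters were chosen on these same members.

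A run of TTTT within 20 bases after the snoRNA's end followed 37 of the 59 genes with a summit, or 62.7%, and 108 of the 287 others, or 37.6%. In hosted genes it followed 22 of 27 with a summit and 73 of 189 without, and in stand-alone genes 15 of 32 and 35 of 98. The box letters were chosen on these same members, so the counts by box that follow are a description. Hosted genes with a box and TTTT had a summit at 17 of 32, or 53.1% (36.4 to 69.1%). Those with neither had one at 3 of 110, or 2.73% (0.932 to 7.71%). In replicate 1 these counts were 16 and 3, and in replicate 2 they were 12 and 3. Hosted genes with TTTT but no box had a summit at 5 of 63, or 7.94%. In stand-alone genes with a box, the counts were 9 of 15 with TTTT and 2 of 6 without. Without a box they went the other way, with 6 of 35 (17.1%) with TTTT and 15 of 74 (20.3%) without, and in replicate 2 these shares were 8.57% and 18.9%. The sequence TATAAA in the 100 bp upstream was found in 2 of the 59 genes with a summit and 20 of the 287 others.

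The motif GCGGAACC occurred in the window of 19 snoRNA genes, 6 of which had a summit, or 31.6% (15.4 to 54.0%). Of the 327 without it 53 had a summit, or 16.2% (12.6 to 20.6%), and the intervals overlap. The 6 genes were F59C6.15, F25H2.15, Y53F4B.47, T26A8.6, smy-2 and C16D9.11, and 4 of the 6 stand alone. Replicate 1 had a summit at 5 of the 19 and 49 of the 327, and replicate 2 at 4 (21.1%) and 47 (14.4%). The motif was also found before 23.3% of snRNA genes and 0.105% of protein-coding genes. It was picked by comparing short words before members with and without a summit, so this too is a description.

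The kind of snoRNA could be read from simple letters in few members. Of the members, 82 were H/ACA-like by an ACA near the 3' end, and 14 of them had a summit, or 17.1%, compared with 17.0% of the others. A C box and a D box together were found in 13 genes, of which 4 had a summit. The D box letters CTGA alone, in the last 15 bases, were found in 24 of the 59 genes with a summit, or 40.7%, and in 53 of the 287 others, or 18.5%. Genes with a summit were somewhat shorter, with a median of 103 bp compared with 130 bp for all members. These letter rules are loose and do not replace a structural annotation.

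The peaks at snoRNA genes were of middling strength. Their median rank was 1230, with a range of 43 to 2532, compared with 1284.5 for the whole IDR list. Of the 59 genes, 39 also had a summit within 250 bp in the top 2568 of both replicates, 18 in the top of 1 replicate and 2 in neither. A peak of any rank was found in both replicate lists at 57 of the 59, and within the top 5136 of both, at 54. W06H8.17 lacked a peak in replicate 1 and F54E7.10 in replicate 2. C26C6.13 ranked 29323 in replicate 1 but 961 in replicate 2, and F25H2.15 ranked 1311 and 29853. In the F25H2.15 peak, the 36 bases around the summit occur more than once in the genome, whereas those of the other 58 genes are unique.

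**Figure D5:**
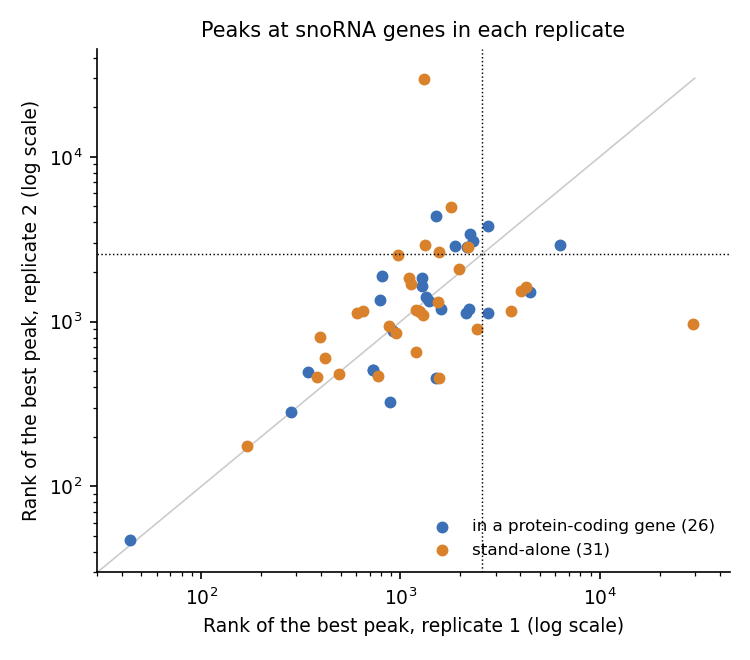
Rank by signal of the highest-ranked peak with a summit within 250 bp in each replicate list, on log scales, for the 57 snoRNA genes with an IDR summit that have a peak in both lists; dotted lines mark rank 2568 and the grey line equal ranks. Most genes sit below both dotted lines, and C26C6.13 and F25H2.15 lie far off the diagonal.

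The share of members with a summit varied between chromosomes. Chromosome V had a summit at 15 of 55 members, or 27.3% (17.3 to 40.2%), and chromosome I at 15 of 74, or 20.3%. Chromosomes IV and II stood at 11 of 59 and 12 of 71, and chromosome III at 5 of 54, or 9.26%. On X it was 1 of 33, or 3.03% (0.537 to 15.3%). Of the other genes on each chromosome, a summit was found at 4.57% on V, 13.5% on I, 1.99% on IV, 9.32% on II, 13.4% on III and 4.47% on X. The members' share was thus above that of the other genes on I, II, IV and V and below it on III and X. On I, III and X the interval of the members includes the share of the other genes. The annotation's 15363 piRNA genes are among these other genes.

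The promoters of the host genes were often occupied, with a larger share than among protein-coding genes as a whole. Of the 188 hosts, 66 had an IDR summit in the promoter window, or 35.1% (28.6 to 42.2%), compared with 12.6% of all protein-coding genes and 12.3% of those that hold no snoRNA. Replicate 1 gave 70 hosts and replicate 2 gave 66. A summit at any transcript start of a gene counted, and genes were not matched for their number of starts, so its part in this difference was not tested. Among hosts on the snoRNA's strand the count was 58 of 156. Without those named as ribosomal protein genes by an rpl-, rps- or rla- symbol, it was 45 of 143, or 31.5%. Ribosomal protein genes under other names would remain among the 143. In all, 13 of the 66 hosts with a promoter summit also had a snoRNA with a summit, and another 13 hosts had the snoRNA summit alone. The 6 snoRNA genes whose summit lies in the host's own promoter window belong to the first group, so that there 1 summit counts for both. At 37 of the 66 hosts every promoter summit was shared with the window of another protein-coding gene, so that it cannot be assigned to the host alone.

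All 13 hosts named as ribosomal protein genes had a promoter summit in the IDR list and in both replicates. At 11 of the 13 the summit was shared with the promoter window of another gene, and rpl-6 and rps-4 were the exceptions. These hosts hold 19 snoRNA genes, and the 1 with a summit is F54E7.10, beside the rps-12 promoter. The highest-ranked was rpl-15 at rank 3 with a signal of 4114, followed by rpl-6 at rank 20 and rps-23 at rank 27. The lowest was rpl-2 at rank 753. Of the 3 translation factor hosts, iff-2 had a promoter summit at rank 199, shared with F54C9.14, and eef-1G and eif-4A3 had none.

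The 3 hosts with more than 2 members had no summit at any of these members. nol-56, a box C/D core protein gene that holds 4 snoRNA genes, had a promoter summit at rank 601 with a signal of 93.81. rpl-6 and top-2, which encodes a DNA topoisomerase, hold 3 each and had promoter summits at ranks 20 and 29. The summit of top-2 also lies in the promoter window of npp-3. Among the hosts with 2 members, taken in order of name, Y37E3.8 had a promoter summit at rank 83, shared with phb-1, whereas F58D5.5 and air-1, an Aurora kinase gene, had none. No member in these 3 hosts had a summit either.

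The genes for the proteins that carry, assemble or transcribe snoRNAs were mostly occupied as well. Of 14 such genes, 12 had an IDR summit in the promoter window, or 85.7% (60.1 to 96.0%), compared with 12.6% of all protein-coding genes. Replicate 1 gave 10 and replicate 2 gave 12. The list of 14 genes was chosen with earlier results of these data known, so this share is a description and no test was made. All 4 box C/D core genes had a summit. fib-1, the methyltransferase fibrillarin, led at rank 136 with a signal of 636.0, 64 bp before its start. nol-58, nol-56 and snu-13 followed at ranks 457, 601 and 795. The 4 box H/ACA core genes did too, with Y48A6B.3 at rank 404, nola-3 at 465, dkc-1, the pseudouridine synthase dyskerin, at 1181 and garr-1 at 1195.

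Of the assembly and processing genes, ruvb-2, dao-5 and ruvb-1 had summits at ranks 495, 887 and 1879, and the exonuclease gene xrn-2 had none. ruvb-1 and ruvb-2 encode AAA ATPases that help to assemble snoRNA particles. snpc-4, a subunit of the complex that drives snRNA gene promoters, had a summit at rank 2501, near the end of the IDR list, and the TATA-binding protein gene tbp-1 had none. dkc-1 and snpc-4 were the 2 genes missing from the top of replicate 1. The summits of 8 of the 12 also lie in the promoter window of a neighbouring gene, for instance mut-15 at fib-1 and ran-1 at dkc-1, and cannot be assigned to 1 of the pair.

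The distance limit left few members close to it. Just inside 250 bp were W06H8.17 at 216 bp, C26C6.13 at 232 bp and F54E7.10 at 235 bp. Just outside were F37F2.4 at 262 bp, K02F3.15 in zip-2 at 276 bp and C27H5.10 in pdl-1 at 307 bp.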

How the data were processed

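LSY-2 ChIP-seq peaks from 2 biological replicates of 1 group were used as deposited by the authors on ce11: 1 for each replicate, 1 for the pooled replicates and the IDR list. The 30000 peaks of the first 3 include background, per the labels of these lists. Which aligner, caller and IDR threshold were used is not given in the sources used here. The authors' signal value of each peak has a scale set within its list and only ranked or described peaks. The deposited −log10 q-value was not used for ranking. The deposited summit offset, in bp from the peak start, gave the position of the summit. The 2568 IDR peaks were those of highest signal in the pooled list. The ce10 lists were not used here.

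Genes came from Ensembl release 115 on WBcel235, and sequences from the RefSeq copy of the same assembly. A gene had a summit where one lay within 250 bp, a host had one in the window from 1000 bp upstream to 300 bp downstream of a transcript start, and replicates were compared through the top 2568 peaks of each list. Shares have 95% Wilson intervals, which cover counting error over genes only, and no test was run, since there is 1 group. Positions and counts were checked on simulated peaks.

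The members and gene lists were chosen with earlier results of these data known. Named are the 12 hosted and 12 stand-alone members with the strongest summits, their hosts, the 6 hosts with most members, the 3 members on each side of 250 bp, summits shared by members and every listed protein gene; other names were chosen after their values were seen. The letters of the A and B boxes, their window and GCGGAACC were chosen after comparing short words of 6 to 8 bases upstream of members with and without a summit. The way a B box was joined to an A box was also changed after 2 members had been seen, which altered positions and not the count of 18. Alternatives were other distances, the 5' end, peak midpoints, stricter and looser lists, each replicate alone, a shorter promoter window and the strand of the host. Software was matplotlib 3.10.9, scipy 1.17.1, pandas 2.3.3 and numpy 2.4.6 under Python 3.11.15.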

Additional observations from a re-analysis of the deposited data

How the results depend on the processing

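The order of stand-alone above hosted genes held under every alternative that was run on both classes. Within 1000 bp, 99 members had a summit, 59 of them hosted (27.3% of hosted genes) and 40 stand-alone (30.8%), at 90 distinct summits. These shares were closer to each other than those within 250 bp, at 12.5% and 24.6%. With the 1284 IDR peaks of highest signal, 32 members had one at 31 distinct summits, 12 hosted (5.56%) and 20 stand-alone (15.4%), and 25% of hosts had a promoter summit. With 5136 peaks of the pooled list, 43 hosted genes (19.9%) and 47.3% of hosts had one. A promoter window from 500 bp upstream to 100 bp downstream left 27.7% of hosts. Without summits in protein-coding promoter windows, an alternative chosen after seeing the data, 35 members had one, 16 of them stand-alone. With replicate 1 alone 54 members and with replicate 2 alone 51 members had a summit. With the tighter box letters, also added later, the pair was found in 9 members in place of 18, and 4 in place of 11 of these had a summit (44.4% in place of 61.1%). The other alternatives run moved no count of members or hosts by more than 1.5 times. No paired analysis was possible because the 2 replicates form 1 group.

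Depth is unknown, so a member without a summit may lie below detection. How reads in repeated sequence were placed is not stated. The 36 bases centred 30 bp before the snoRNA occur more than once in the genome for 12 of the 287 members without a summit and for 0 of the 59 with one. Without a control library analysed here, the part of open chromatin or of input signal in these counts was not tested.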
